A study of Mus musculus with 37 samples.

Results

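The heat shock proteins and DnaJ cochaperones of the mouse brain were read here as a family of 72 genes, out of 19938 genes measured. They are all the genes that have a probe set named with 1 symbol beginning with Hsp and a letter or digit, or with Dnaj, apart from Hspg2, which encodes a basement membrane proteoglycan and no chaperone. Where a gene had several such probe sets, the brightest of them, averaged over the arrays, was used. Roles were assigned from the gene symbols alone, so a gene such as Hspb11 is counted as a small heat shock protein by its name only. By role the family held 2 Hsp90 proteins, 13 members of the Hsp70 and Hsp110 class, 8 small heat shock proteins, the 2 subunits of the mitochondrial chaperonin, 4 Dnaja, 13 Dnajb and 28 Dnajc proteins, and 2 genes with Hsp symbols that encode partners of heat shock proteins. Hspa1b and Hsp90ab1 are not among them, since the array table gives neither a probe set of its own.

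The RNA came from 8 male mice, with brain stem, cerebellum, cortex and olfactory bulb taken apart. The mice were all F1 hybrids of C57BL/6N and 129Sv. They differed in an engineered rearrangement of the chromosomal segment that corresponds to human 16p11.2. The segment had 1 copy in 2 df/+ mice (a heterozygous deletion), 2 copies in 3 +/+ mice and 3 copies in 3 dp/+ mice (a heterozygous duplication). The rearrangement was carried by whole animals, the labels give no age, and the cortex of dp/+ mouse 3 is not among the samples, which leaves 31 region samples on 37 arrays. Whole tissue was hybridised, so fewer cells of a type and less RNA per cell cannot be told apart in any value below.

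Chaperones bind proteins that are unfolded, newly made or damaged and keep them from clumping. Hsp70 does so in cycles of ATP hydrolysis: a DnaJ protein delivers the client and triggers hydrolysis through its J domain, and an exchange factor, often an Hsp110, lets the client go again. Hsp90 takes clients over for final folding, small heat shock proteins hold clients without using ATP, and the chaperonin encloses them in a barrel inside mitochondria. Only part of the family is heat-inducible: its genes are switched on by heat shock factor, which binds inverted repeats of the unit nGAAn. The other members are made all the time, many of them for 1 organelle, and neurons depend on them because their proteins must last in cells that do not divide.

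Those repeats could be looked for in RefSeq promoters (build GRCm38.p6, 250 bases before to 50 bases after each start site), which were found for 59 of the 72 members. Units in opposite orientation were searched as TTCNNGAA and GAANNTTC, which read the same on both strands. A run of 3 units was searched as GAANNTTC followed by NNGAA, and as its reverse complement, so every run of 3 also holds the pairs. A match to either 2-unit motif was present in 17 of 76 member promoters (22.4%) and in 15.1% of all 32851 promoters. A match of 3 units was present in 6 member promoters (7.89%) and in 0.603% of all promoters. The 6 belong to 4 genes, Hsph1, Hspd1, Hspe1 and Dnajb6, and the windows of Hspd1 and Hspe1 overlap by 285 bases and hold the same match. These are matches of letters in a window and no evidence of binding. The promoters of Hsph1, Dnajb1, Hspb8 and Hspd1 are shown because these 4 members had the smallest p in the dp/+ cerebellum, with Hspa1a, the classical heat-inducible Hsp70 gene, beside them; capitals mark the matched motifs.
Hsph1 (chr5:149636266-149636565, minus strand): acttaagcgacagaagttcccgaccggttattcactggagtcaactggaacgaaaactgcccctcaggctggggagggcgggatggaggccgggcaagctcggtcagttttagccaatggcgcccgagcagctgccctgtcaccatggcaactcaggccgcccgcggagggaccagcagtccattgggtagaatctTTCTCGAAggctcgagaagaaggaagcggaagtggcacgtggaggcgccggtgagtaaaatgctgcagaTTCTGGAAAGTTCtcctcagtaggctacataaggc
Hspd1 (chr1:55087883-55088182, minus strand): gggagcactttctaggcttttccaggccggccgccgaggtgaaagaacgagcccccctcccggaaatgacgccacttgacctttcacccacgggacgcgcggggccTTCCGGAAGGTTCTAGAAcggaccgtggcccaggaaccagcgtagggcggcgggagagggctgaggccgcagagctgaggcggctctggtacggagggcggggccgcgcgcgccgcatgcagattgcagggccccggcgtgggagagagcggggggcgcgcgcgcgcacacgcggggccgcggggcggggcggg
Dnajb1 (chr8:83607925-83608224, plus strand): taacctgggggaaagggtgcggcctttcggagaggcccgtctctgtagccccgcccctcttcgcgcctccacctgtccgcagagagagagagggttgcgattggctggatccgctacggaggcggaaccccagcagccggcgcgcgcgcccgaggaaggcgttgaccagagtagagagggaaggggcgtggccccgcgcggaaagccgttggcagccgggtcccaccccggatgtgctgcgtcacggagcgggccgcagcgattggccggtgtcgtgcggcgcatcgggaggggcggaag
Hspb8 (chr5:116422815-116423114, minus strand): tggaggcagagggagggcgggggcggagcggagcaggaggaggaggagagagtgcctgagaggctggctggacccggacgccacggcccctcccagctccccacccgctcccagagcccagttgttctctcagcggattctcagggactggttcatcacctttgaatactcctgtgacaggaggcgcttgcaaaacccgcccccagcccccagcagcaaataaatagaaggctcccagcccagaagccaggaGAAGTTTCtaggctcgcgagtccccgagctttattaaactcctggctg
Hspa1a (chr17:34972107-34972406, minus strand): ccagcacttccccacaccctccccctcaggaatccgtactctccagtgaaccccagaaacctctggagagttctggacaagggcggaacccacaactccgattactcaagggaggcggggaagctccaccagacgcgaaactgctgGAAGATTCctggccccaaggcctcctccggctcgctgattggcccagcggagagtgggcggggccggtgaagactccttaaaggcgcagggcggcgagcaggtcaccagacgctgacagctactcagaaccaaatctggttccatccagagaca
Hspd1 and its head-to-head neighbour Hspe1 share a run of 4 units, Hsph1 has 1 pair of units before its start and a run of 3 units just after it, Hspb8 and Hspa1a have 1 pair each, and in the Dnajb1 window none of these letters was found.

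The first comparison asked in which region of the wild-type brain each member is most abundant. Values are log2 RMA summaries, so that a difference of 1 is a doubling, and each was compared only with values of the same gene. An F test over the 4 regions with the mouse as a block (limma, Benjamini-Hochberg adjustment over all genes, threshold 0.05) called 46 of 72 members in the 3 +/+ mice, 63.9% beside 58% of all genes. The median difference between the highest and the lowest region was 0.39 for the members and 0.36 for all genes, so as a family they were about as regional as the array as a whole. The same test in the 5 mice with a rearrangement, 19 samples that the first test did not use, called 60 members (70.4% of all genes), and 45 were called in both (62.5%, beside 52.8% of all genes). Of those 45, 34 had their highest mean in the same region in both sets of mice. This count was not made over all genes, so it cannot be read as particular to the family. In the rearranged mice a regional difference also holds any genotype difference that is not the same in all regions. The olfactory bulb was the region with the most members below the rest: 21 were lower there than in the mean of the other 3 regions (21.2% of all genes were) and 9 higher (15.3%). Brain stem ran the other way, with 16 members higher (15.9%) and 7 lower (14.3%). Cortex had 12 higher (16.9%) and 12 lower (17.8%), and cerebellum 15 higher (20.9%) and 17 lower (18.1%).

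**Figure D1:**
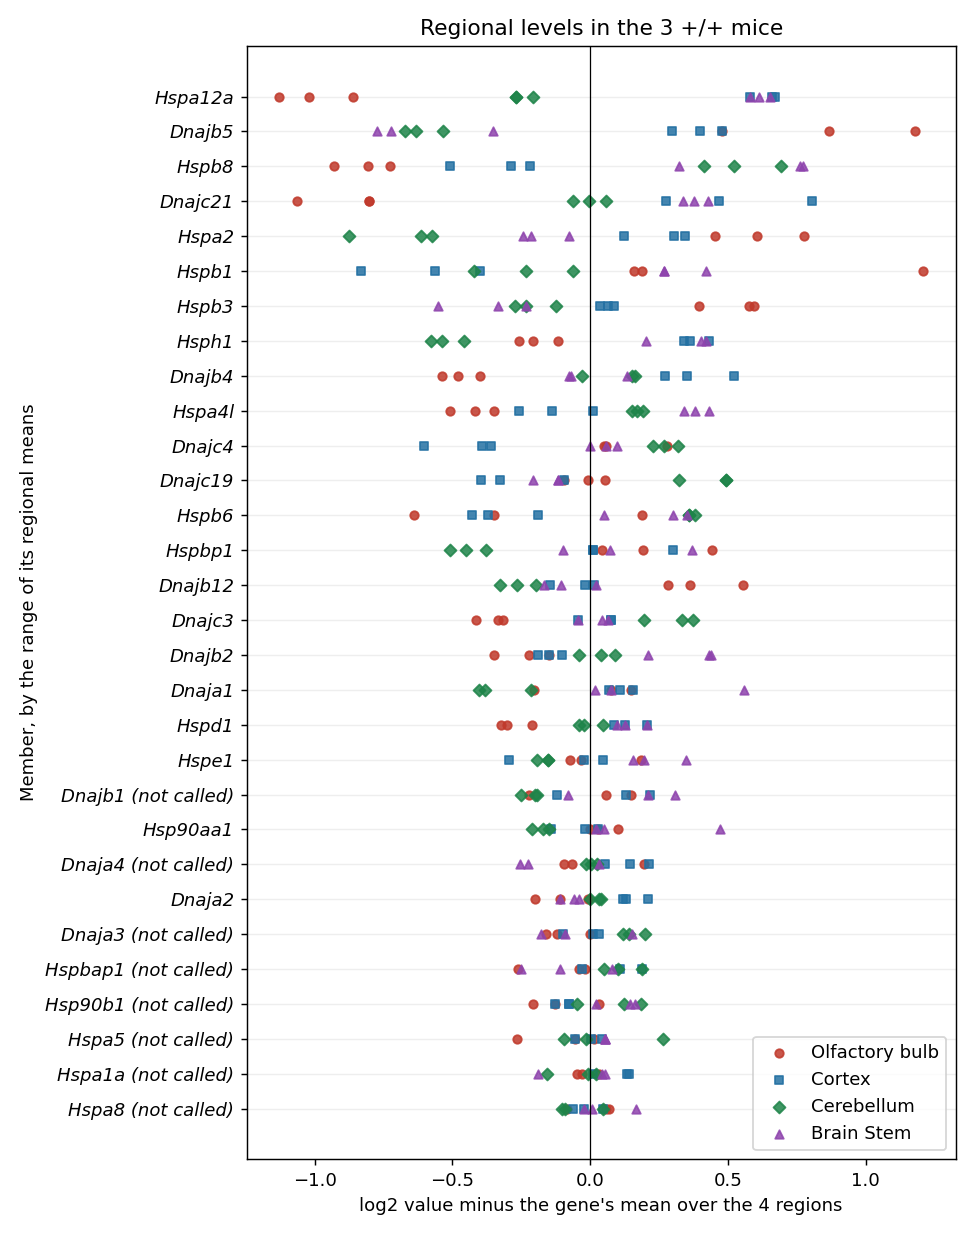
Each point is 1 region sample of a +/+ mouse, given as its log2 value minus the gene's mean over the 4 regions (x axis), for the members described in the text (y axis, widest range at the top). Hspa12a, Hspb8 and Dnajc21 are far to the left in olfactory bulb, Dnajb5 and Hspa2 are to the right there, and the points of Hspa8 and Hspa1a lie close to 0 in all regions.

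In the Hsp70 and Hsp110 class 7 of 13 members were called, and they did not share a pattern. Hspa12a, a distant relative of Hsp70, had the widest range of the whole family. Its values in the 3 +/+ mice were 9.14, 9.41 and 9.25 in olfactory bulb, 10.06, 10 and 10 in cerebellum, 10.94, 10.93 and 10.85 in cortex and 10.88, 10.85 and 10.92 in brain stem. Bulb, cerebellum and the pair of cortex and brain stem formed 3 separate steps with no overlap. Cortex exceeded bulb 3.11-fold (adjusted p = 2e-10, limma F test), a log2 difference of 1.64, and the rearranged mice gave 1.66 for the same regions. Hspa2, an Hsp70 best known from male germ cells, ran the opposite way. It read 9.74, 9.89 and 10.06 in bulb, 9.59, 9.63 and 9.41 in cortex, 9.21, 9.07 and 9.04 in brain stem and 8.41, 8.67 and 8.71 in cerebellum. All 3 bulb values lay above every other sample, and bulb was 2.46-fold above cerebellum (adjusted p = 1.91e-07; log2 1.30, and 1.47 in the rearranged mice).

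Both Hsp110 exchange factors named here were also regional. Hsph1, the heat-inducible Hsp110, read 11.06, 10.97 and 10.99 in cortex, 11.03, 11.05 and 10.83 in brain stem, 10.42, 10.37 and 10.51 in bulb and 10.17, 10.05 and 10.09 in cerebellum. Cortex and brain stem overlapped with each other and lay above bulb, which lay above cerebellum. The difference of cortex and cerebellum was 0.90 (1.87-fold, adjusted p = 2.72e-07) in +/+ mice and 1.33 in the rearranged mice. The dp/+ cerebella, in which Hsph1 was lower than in the +/+ ones as given below, enter the 1.33. Hspa4l, a related exchange factor, rose in steps from bulb (10.45 ± 0.08, SD, n = 3) through cortex (10.75 ± 0.14) and cerebellum (11.05 ± 0.02) to brain stem (11.26 ± 0.05), with adjusted p = 4.3e-06. Hspa8, the constitutive Hsp70 of the cytosol, was not called. Its means were 13.28 ± 0.08 in bulb, 13.25 ± 0.05 in cortex, 13.21 ± 0.08 in cerebellum and 13.31 ± 0.10 in brain stem (adjusted p = 0.741), its samples overlapped in all regions, and after cyclic loess cerebellum stood above brain stem by 0.10. Hspa5 (BiP), the Hsp70 of the endoplasmic reticulum, had means between 11.48 and 11.64 (adjusted p = 0.343). Hspa1a had means between 8.26 and 8.41 and was not called either (adjusted p = 0.424), although in the rearranged mice it was (adjusted p = 0.00027, cortex above cerebellum by 0.30). Probes for Hspa1a may also bind RNA of Hspa1b, its near-identical neighbour, and a probe set named with both genes was left out by the rule. That probe set was brighter, with +/+ means of 9.52 in cortex, 9.41 in brain stem, 9.23 in bulb and 9.19 in cerebellum, and was not tested.

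The 2 Hsp90 genes varied little. Hsp90aa1, the inducible Hsp90 of the cytosol, was called (adjusted p = 0.029) with 12.79 ± 0.25 in brain stem and 12.43 ± 0.03 in cerebellum. That call was lost under cyclic loess between arrays (a difference of 0.20, adjusted p = 0.194), after quantile normalization within regions (0.0507) and with no mouse block (0.0554). The brain stem of +/+ mouse 1 stood out (13.08, against 12.66 and 12.63 in the other mice): without this mouse the difference was 0.20 with adjusted p = 0.236, and without mouse 2 or 3 it was 0.43 or 0.45 with 0.0792 or 0.0561. The rearranged mice had the same order, with 0.30 between these regions (adjusted p = 0.000109). Hsp90b1 (Grp94), the Hsp90 of the endoplasmic reticulum, read 11.66 ± 0.07 in brain stem and 11.44 ± 0.12 in bulb (adjusted p = 0.0506).

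Of the 8 small heat shock proteins 4 were called, each with a pattern of its own. Hspb8, which works with Bag3 in the removal of clients by autophagy, read 7.99, 8.07 and 7.87 in bulb, 8.51, 8.58 and 8.29 in cortex, 9.21, 9.49 and 9.32 in cerebellum and 9.12, 9.56 and 9.57 in brain stem. Bulb was lowest in every mouse, cortex came next, and cerebellum and brain stem overlapped at the top. Brain stem was 2.71-fold above bulb (adjusted p = 1.36e-08; log2 1.44, and 1.65 in the rearranged mice). Hspb3 was dim on these arrays, and of the 4 regions it was brightest in bulb, at 7.61 ± 0.11 against 6.71 ± 0.16 in brain stem (adjusted p = 1.48e-06; log2 0.90 in both sets of mice).

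Hspb1, the best known small heat shock protein and an inducible one, read 10.34, 9.32 and 9.29 in bulb, 9.40, 9.40 and 9.55 in brain stem, 9.07, 8.71 and 8.90 in cerebellum and 8.57, 8.73 and 8.30 in cortex. Cortex was the lowest region in +/+ mice 1 and 3, and in +/+ mouse 2 it stood level with cerebellum. The bulb of +/+ mouse 1 stood far above the other bulb samples, and without it brain stem would be the highest region. Without this mouse bulb exceeded cortex by 0.79 in place of 1.12 (adjusted p = 0.000351 and 0.000176). In the rearranged mice, brain stem was the highest region and bulb exceeded cortex by 0.38. Of all members, Hspb1 also varied most between mice of 1 group: its SD within groups was 0.25, the 97.8th percentile of all genes. Hspb6, which is abundant in muscle, read 9.49 ± 0.01 in cerebellum, 9.35 ± 0.16 in brain stem, 8.85 ± 0.42 in bulb and 8.79 ± 0.12 in cortex (adjusted p = 0.00104). Its 3 bulb values (9.31, 8.77 and 8.48) spanned most of that range.

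Both subunits of the mitochondrial chaperonin were called, and both were higher in brain stem than in the other regions together. For Hspd1 this held for cortex as much as for brain stem, with 0.19 in each (adjusted p = 0.0346 and 0.0353, limma). Hspd1 (Hsp60), which forms the barrel, read 10.55, 10.53 and 10.64 in bulb and between 10.81 and 11.06 in all 9 samples of the other regions. Bulb was lower than the mean of those regions by 0.37 (adjusted p = 0.000251). Hspe1 (Hsp10), the lid, read 10.59 ± 0.10 in brain stem, 10.38 ± 0.14 in bulb, 10.26 ± 0.18 in cortex and 10.19 ± 0.02 in cerebellum (adjusted p = 0.00775); the call was lost without +/+ mouse 1 (0.0715) or 3 (0.0532). The 2 genes share a promoter region, but bulb had the lowest mean for Hspd1 and a mean below only that of brain stem for Hspe1. The reference table lists pseudogenes named after both, so RNA of near-identical copies may enter these probe sets. Of the 2 partner genes, Hspbp1, an exchange factor that acts on Hsp70, was lowest in cerebellum (10.08 ± 0.07, against 10.63 to 10.74 in the other regions, adjusted p = 0.000352). Hspbap1, which binds Hspb1, had means between 8.01 and 8.23 (adjusted p = 0.0518).

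Among the DnaJ proteins, 2 of 4 Dnaja, 9 of 13 Dnajb and 20 of 28 Dnajc genes were called. Dnajb5 had the widest range of them: 10.35, 10.74 and 11.05 in bulb, 10.17, 10.27 and 10.35 in cortex, 9.34, 9.24 and 9.20 in cerebellum and 9.10, 9.52 and 9.15 in brain stem. Bulb and cortex lay above all 6 samples of the other regions, by 2.74-fold for the means of bulb and cerebellum (adjusted p = 9.05e-08; log2 1.46, and 1.47 in the rearranged mice). Dnajb4 was highest in cortex (11.45 ± 0.13) and lowest in bulb (10.60 ± 0.07, adjusted p = 5.12e-06). Dnajb12, an anchored protein of the endoplasmic reticulum membrane, was highest in bulb (10.09 ± 0.14 against 9.42 ± 0.07 in cerebellum, adjusted p = 4.45e-05). Dnajb2, known from neurons, was highest in brain stem (9.77 ± 0.13 against 9.17 ± 0.10 in bulb, adjusted p = 4.9e-05). Dnajb1, the inducible partner of Hsp70 (Hsp40), missed the threshold in +/+ mice, with 9.64 ± 0.20 in brain stem and 9.28 ± 0.03 in cerebellum (adjusted p = 0.0599). It was called in the rearranged mice, where the difference between these regions was 0.71 (adjusted p = 7.52e-08). The dp/+ cerebella, in which Dnajb1 was lower than in the +/+ ones as given below, enter this difference.

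Dnajc21, a factor of ribosome assembly, read 7.26, 7.52 and 7.52 in bulb and 8.60, 8.79 and 9.13 in cortex. Cerebellum (8.32 ± 0.06) and brain stem (8.70 ± 0.05) lay between, and every bulb sample was below every other sample. The range was 1.41 (2.65-fold, adjusted p = 3.62e-08) and 1.14 for the same regions in the rearranged mice. The other 3 Dnajc genes with the smallest p were all highest in cerebellum. Dnajc4 read 9.34 ± 0.05 there and 8.62 ± 0.13 in cortex (adjusted p = 1.2e-05). Dnajc19, part of the motor that imports proteins into mitochondria, read 10.01 ± 0.10 there and 9.30 ± 0.16 in cortex (adjusted p = 5.03e-05). Dnajc3 (P58IPK), a chaperone of the endoplasmic reticulum, read 9.98 ± 0.09 there and 9.32 ± 0.05 in bulb (adjusted p = 3.63e-05). In the Dnaja class, the cytosolic Hsp70 partners Dnaja1 and Dnaja2 were called. Dnaja1 was lowest in cerebellum (10.14 ± 0.11) and highest in brain stem (10.69 ± 0.30, adjusted p = 0.00262), where +/+ mouse 1 again stood out (11.03 against 10.49 and 10.55). Without this mouse its range was 0.35 in place of 0.55, with adjusted p = 0.0227. The peak in brain stem belongs to this probe set. A second, dimmer Dnaja1 probe set was highest in cortex (9.51) and read 9.11 to 9.15 in the other regions. Its adjusted p was 0.00157 (F test, each probe set as its own feature). Dnaja2 read 11.08 ± 0.05 in cortex and 10.82 ± 0.10 in bulb (adjusted p = 0.0382), a call that was lost whichever +/+ mouse was left out (0.0831 to 0.259). Mitochondrial Dnaja3 (adjusted p = 0.0876) and Dnaja4 (0.0644) were not called, with ranges of 0.25 and 0.29.

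**Figure D2:**
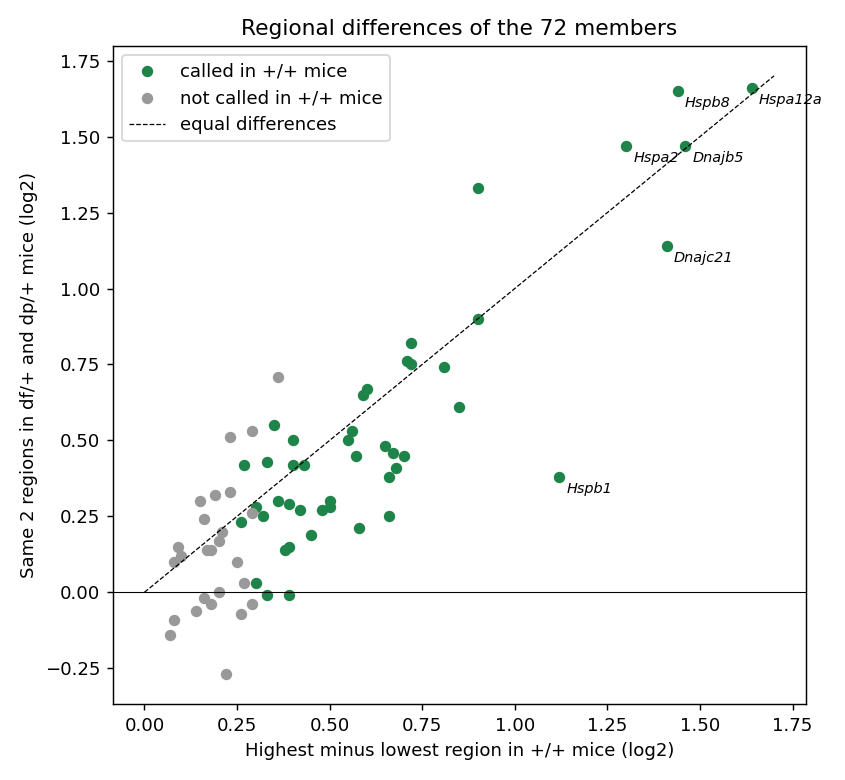
Each point is 1 of the 72 members; the x axis is the log2 difference between its highest and lowest region in the 3 +/+ mice, and the y axis is the log2 difference between the same regions in the 5 df/+ and dp/+ mice, with the dashed line where they are equal. Of the 46 called members, 44 lie above 0 on the y axis (a count not made over all genes), and Hspb1 lies furthest below the line.

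Markers of cell types differ between these regions too. The mean log2 value of 5 oligodendrocyte markers was 10.5 in bulb, 11.14 in cortex, 11.05 in cerebellum and 11.98 in brain stem, and that of 5 neuronal markers ran only from 12.20 to 12.35. Astrocyte markers ran from 10.51 in cortex to 10.93 in brain stem and microglial markers from 7.68 in cerebellum to 8.53 in cortex. The part of cell composition in the regional levels of the chaperones was not tested. Each regional marker list was highest in its own region, for example 12.02 in cerebellum for the cerebellar list against 7.97 to 8.72 elsewhere. Single markers were less even in +/+ brain stem. There the cortical markers Tbr1 (8.01 ± 1.38, SD, n = 3) and Neurod6 (7.36 ± 1.27) varied widely between mice, and Cux2 (8.77 ± 0.12) did not. The cortical marker Lamp5 read 11.05 there and 11.08 in cortex. The choroid plexus marker Ttr also varied widely in brain stem (11.44 ± 2.18).

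The second comparison asked whether the members follow the copy number of the segment. Across the brain, with 1 value per mouse, 22 genes had a slope on log2 copies that passed the threshold (0.11% of all genes). All 22 slopes were positive, with a median of 0.62, and 21 of these genes lie on chromosome 7, the chromosome of the segment. No member was among them (limma), and 6 members had an unadjusted p under 0.05, beside 1370 of all 19938 genes. The 3 smallest p belonged to Hsph1 with a slope of -0.16 (95% interval -0.29 to -0.04, adjusted p = 0.697), Dnajc15, a mitochondrial inner membrane protein, with -0.12 (adjusted p = 0.697), and Dnajc17, a splicing-related protein, with 0.10 (adjusted p = 0.702). The median slope of the members was -0.02 and that of all genes 0.01. For Hspa8 the interval of the slope was -0.10 to 0.07 and for Hspa1a -0.10 to 0.12, where proportionality to copies would be 1.

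Within regions the slopes gave no call of a member either. The genes called were 0.246% in bulb, 0.0953% in cortex, 0.115% in cerebellum and 0.12% in brain stem, and the members with an unadjusted p under 0.05 were 3, 6, 3 and 1, beside 1204, 1087, 816 and 462 of all genes. Hspa12a in bulb had the smallest p of all, with a slope of -0.21 ± 0.05 (SE) and an adjusted p of 0.141 (limma). In cortex the smallest p belonged to Hspe1 (-0.26 ± 0.09, adjusted p = 0.866), in cerebellum to Hsph1 (-0.21 ± 0.09, adjusted p = 0.999) and in brain stem to Hspa4l (-0.16 ± 0.07). No member had slopes that differed between regions (0.0502% of all genes did). For this test 1 member had an unadjusted p under 0.05, beside 381 of all genes.

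The deletion changed no member past the threshold. Across the brain 0 members were called in df/+ mice (0.115% of all genes), and 4 had an unadjusted p under 0.05, beside 1346 of all genes. Dnajc9, which escorts histones, read 0.30 and 0.14 below the +/+ mean in the 2 df/+ mice (estimate -0.22 ± 0.07, adjusted p = 0.529). Hspd1 read 0.18 and 0.16 below it (-0.17 ± 0.05, adjusted p = 0.566), and Dnajb11, a DnaJ protein of the endoplasmic reticulum, 0.22 and 0.32 below it (-0.27 ± 0.09, adjusted p = 0.573). Within regions the deletion again gave no call of a member in bulb (0.291% of all genes), cortex (0.1%), cerebellum (0.0702%) or brain stem (0.211%). The counts at an unadjusted p under 0.05 were 7, 9, 13 and 2 members, beside 2125, 1199, 1751 and 831 of all genes. In bulb the smallest p were those of Dnajb12 (-0.27 ± 0.08, adjusted p = 0.184), Dnajb6 (0.47 ± 0.14, from a dim probe set) and Hspb6 (-0.53 ± 0.18). In cerebellum they were those of Hspa13, an Hsp70 relative of microsomes (-0.36 ± 0.10, adjusted p = 0.336), Dnajb11 (-0.46 ± 0.14) and Hspd1 (-0.31 ± 0.10). In cortex they were those of Dnajb4 (-0.33 ± 0.12), Dnajb11 (-0.41 ± 0.14) and Dnajc17 (-0.35 ± 0.13), and in brain stem those of Dnaja4 (-0.33 ± 0.13), Hspa2 (-0.26 ± 0.11) and Dnajb5 (-0.31 ± 0.15). With 2 df/+ mice, these values rest on a spread shared with the other genotypes.

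In dp/+ mice 2 members fell across the brain, Dnajb1 and Hspd1 (0.381% of all genes fell), and none rose (1.48%). Dnajb1 lay 0.24, 0.45 and 0.58 below the +/+ mean in the 3 dp/+ mice, while the 3 +/+ mice lay between 0.08 below and 0.05 above it. The 0.58 belongs to dp/+ mouse 3, whose value across the brain lacks cortex for every gene, so it averages fewer regions than the others. The groups did not overlap, and the estimate of -0.42 ± 0.08 (adjusted p = 0.0299) puts the dp/+ level at 74.5% of +/+. Hspd1 lay 0.19, 0.26 and 0.21 below in the dp/+ mice and within 0.03 of the mean in the +/+ mice, again with no overlap (-0.22 ± 0.05, adjusted p = 0.0455, 85.8% of +/+). Every dp/+ mouse lay below every +/+ mouse in 12 of the 72 members and in 10.9% of all genes. The df/+ mice were on the same side for both genes, with -0.18 ± 0.09 for Dnajb1 and -0.17 ± 0.05 for Hspd1, neither past the threshold and both set against the same +/+ mice. Neither call was kept under cyclic loess between arrays (adjusted p = 0.0949 for Dnajb1 and 0.106 for Hspd1, with estimates of -0.38 and -0.19). With 1 mouse left out at a time, the adjusted p ran from 0.0233 to 0.138 for Dnajb1 and from 0.045 to 0.163 for Hspd1. The call of Dnajb1 was lost without +/+ mouse 2 or 3 or dp/+ mouse 2 or 3, and that of Hspd1 without any mouse except +/+ mouse 1. A second Hspd1 probe set gave -0.41 (adjusted p = 0.0135, each probe set tested as its own feature).

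Another 3 members had estimates slightly larger than that of Hspd1 but missed the threshold across the brain. These were Hspe1 (-0.25 ± 0.07, adjusted p = 0.0952), Hspb8 (-0.24 ± 0.06, adjusted p = 0.0679) and Hsph1 (-0.24 ± 0.07, adjusted p = 0.0837); Hspe1 and Hspb8 were named after their values were seen. In Hspb8 all 3 dp/+ mice read below every +/+ mouse, at 0.24, 0.22 and 0.26 below the +/+ mean, against 0.09 below for the lowest +/+ mouse. Not all inducible members read lower. Hspa1a had an estimate of -0.06 (95% interval -0.21 to 0.09), Hspb1 -0.04 (-0.22 to 0.14), Hsp90aa1 0.05 (-0.09 to 0.19) and the constitutive Hspa8 0.05 (-0.07 to 0.16).

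**Figure D3:**
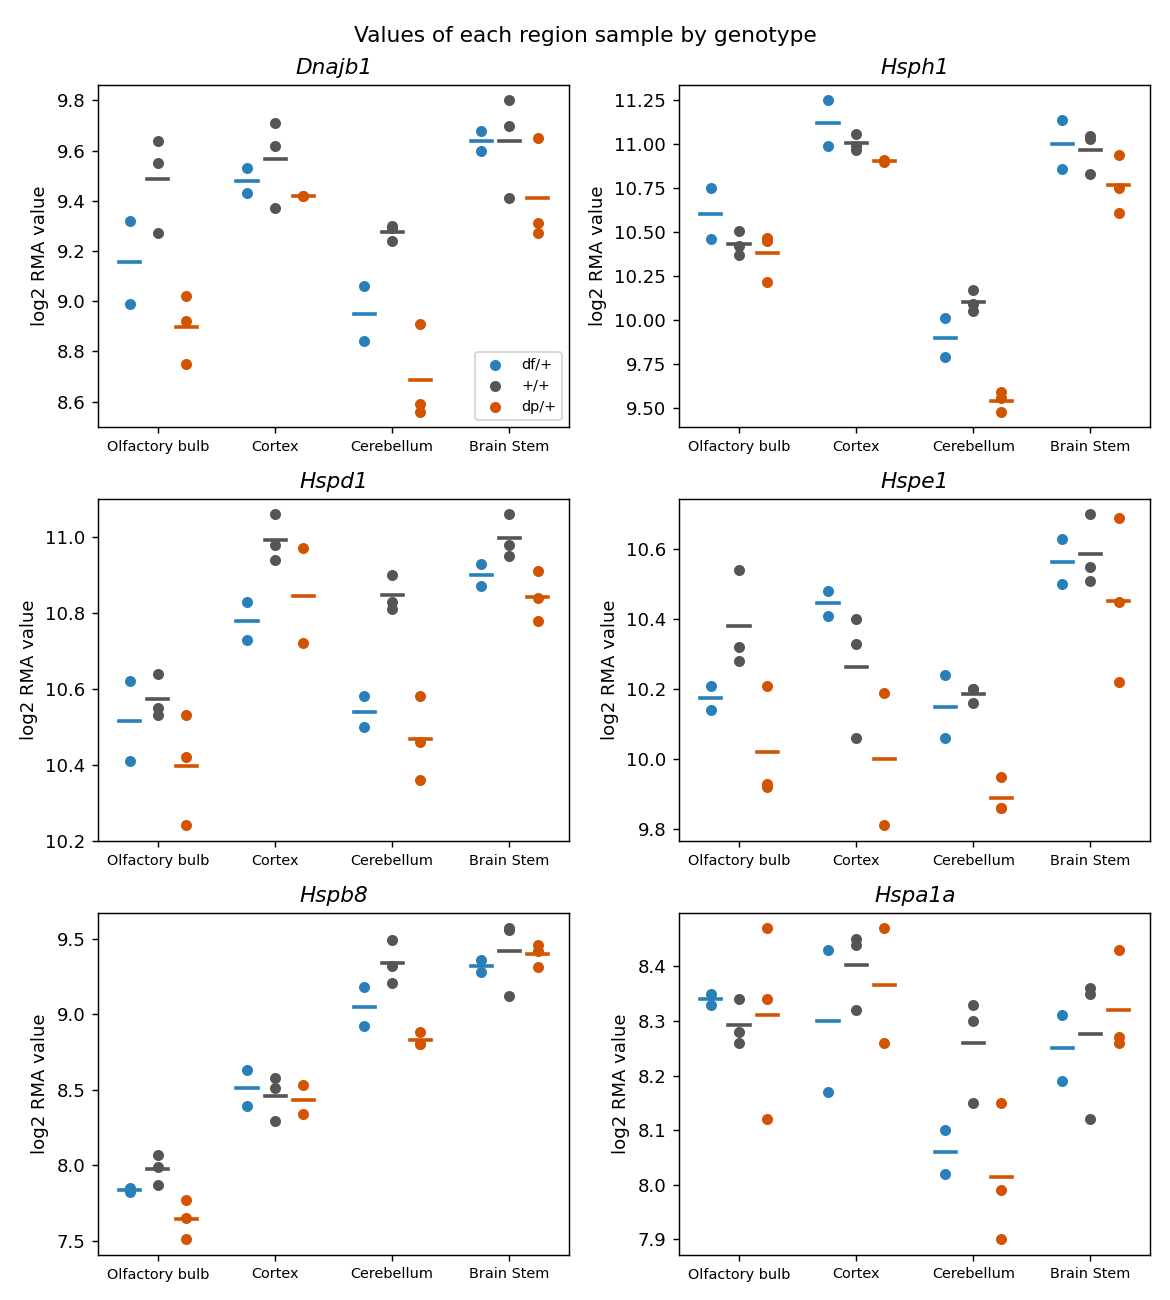
Log2 RMA values (y axis) of 6 members in every region sample, by region (x axis) and genotype (colour); points are samples and bars are group means. In cerebellum the dp/+ points of Dnajb1, Hsph1, Hspd1, Hspe1 and Hspb8 lie below all +/+ points, and those of Hspa1a reach up to the lowest +/+ point.

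By region, 7 members fell in dp/+ cerebellum (3.26% of all genes did) and none rose (2.29%). Hsph1 read 9.56, 9.59 and 9.48 in the dp/+ cerebella, 10.17, 10.05 and 10.09 in the +/+ and 9.79 and 10.01 in the df/+ cerebella. The 3 genotypes did not overlap, and dp/+ stood at 67.8% of +/+ (-0.56 ± 0.10, adjusted p = 0.00708). Dnajb1 read 8.91, 8.56 and 8.59 in dp/+, 9.24, 9.30 and 9.29 in +/+ and 9.06 and 8.84 in df/+. All dp/+ samples lay below all +/+ samples (-0.59 ± 0.12, adjusted p = 0.017, 66.5% of +/+), and the df/+ samples overlapped with the dp/+ samples. Such separation is common here: in 18 of the 72 members and 20.3% of all genes every dp/+ cerebellum lay below every +/+ one, and in 5 members and 16.1% of all genes above. Hspb8 read 8.80, 8.80 and 8.88 in dp/+ against 9.21, 9.49 and 9.32 in +/+ (-0.51 ± 0.11, adjusted p = 0.0186). Hspd1 read 10.36, 10.58 and 10.46 in dp/+ against 10.83, 10.81 and 10.90 in +/+ (-0.38 ± 0.09, adjusted p = 0.0213), and its df/+ samples of 10.58 and 10.5 lay within the dp/+ range. The second Hspd1 probe set gave -0.65 in cerebellum (adjusted p = 0.0173). So the 4 genes with the smallest p were the Hsp110 exchange factor, the inducible DnaJ protein, a small heat shock protein and the chaperonin barrel.

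The other 3 were lower by less. Mitochondrial Dnaja3 read 9.76, 9.77 and 9.45 in dp/+ against 10.05, 10.11 and 10.03 in +/+ (-0.41 ± 0.10, adjusted p = 0.0242). Dnajc28 read 7.49, 7.75 and 7.33 against 7.94, 8.02 and 7.75, so that the groups touch at 7.75 (-0.38 ± 0.10, adjusted p = 0.0349). Hspa13 read 9.34, 9.64 and 9.33 against 9.77, 9.76 and 9.72 (-0.31 ± 0.09, adjusted p = 0.0449). In Hspa13 the df/+ samples of 9.53 and 9.26 were as low as the dp/+ samples. Hspa1a in the same samples read 8.15, 7.99 and 7.90 in dp/+ against 8.30, 8.15 and 8.33 in +/+, and was not called (-0.24 ± 0.09, adjusted p = 0.0948). Hspe1 was not called either, although its dp/+ samples (9.86, 9.86 and 9.95) lay below its +/+ samples of 10.16 to 10.20 (-0.30 ± 0.11, adjusted p = 0.0897). The calls depend on single mice: without +/+ mouse 2 none of the 72 members was called in cerebellum, without dp/+ mouse 1 there was 1, and without +/+ mouse 3 there were 4.

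The change in dp/+ cerebellum also went with the brightness of a gene on the array. Over all genes, ordered by their mean in +/+ mice, the median difference of dp/+ and +/+ cerebellum was 0.16 in group 3 and -0.16 in group 7 of 10 equal groups from the dimmest up. The members are mostly bright, with 50 of 72 in the 4 brightest groups. Their median in the dp/+ cerebellum was -0.11 and 70.8% lay below 0, beside a median of -0.02 and 53.3% for all genes. Set against the median of its own brightness group, Hsph1 was lower by 0.50, Dnajb1 by 0.44, Hspb8 by 0.35 and Hspd1 by 0.32. These 4 are the genes with the smallest p in the same samples. Members that were not called also departed from their groups in both directions, for example Hspb1 by 0.43, Dnajb12 by 0.34 and Dnajb3 by -0.35. Cyclic loess, which evens out differences that depend on brightness, called 5 members and 324 of all genes in dp/+ cerebellum. The deposited values gave 7 and 1105. Of the 5 members, 1 was called only after cyclic loess, and 4 were among the 7. Those 4 were Hsph1 (-0.50, adjusted p = 0.0146), Dnajb1 (-0.49, 0.0376), Hspb8 (-0.43, 0.0344) and Hspd1 (-0.33, 0.0344), and the calls of Dnaja3 (0.0624), Dnajc28 (0.0543) and Hspa13 (0.135) were lost. The interquartile range of all genes was narrower on each dp/+ cerebellum array (lower quartile 6.34 to 6.46, upper 9.36 to 9.44) than on each +/+ one (6.21 to 6.31 and 9.54 to 9.57). The cerebellum of df/+ mouse 2 was as narrow (6.37 to 9.39), and it held the lower of the df/+ values of Dnajb1 (8.84), Hspd1 (10.5) and Hspa13 (9.26) and the higher of those of Hsph1 (10.01). What else this difference between arrays adds to the values was not tested.

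**Figure D4:**
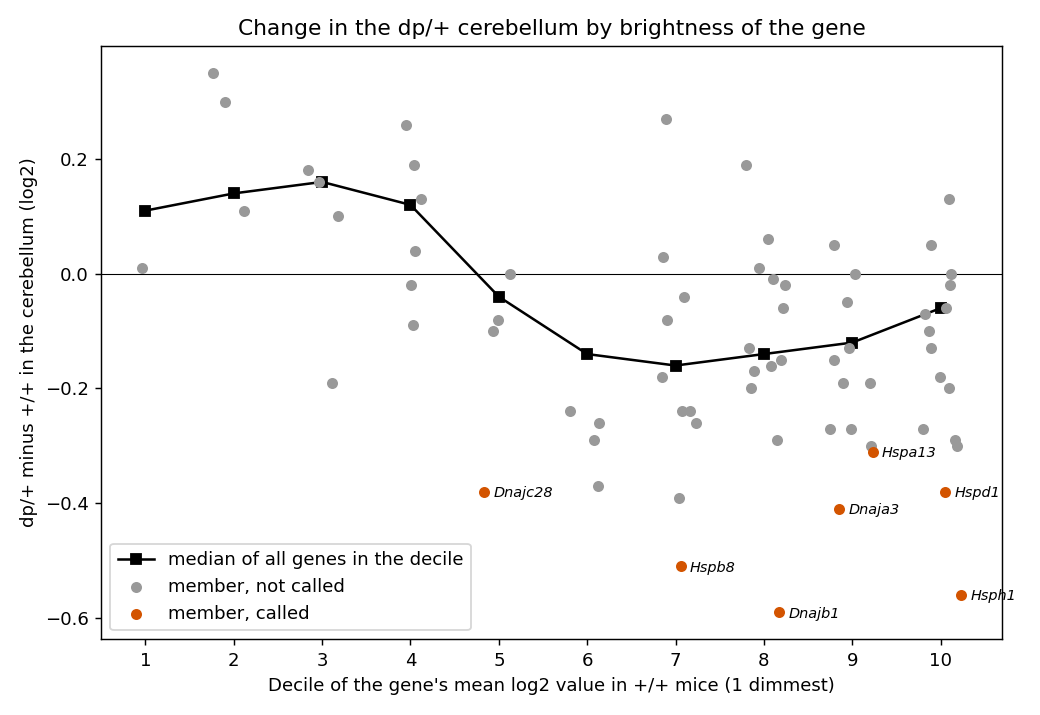
The log2 difference of dp/+ and +/+ cerebellum (y axis) for each of the 72 members (points, spread sideways within a group for legibility), placed by the brightness group of 10 to which its mean +/+ value belongs (x axis, 1 dimmest), with the median of all genes in that group as squares. The members called lie below the squares, Hsph1 and Dnajb1 furthest.

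In the other regions the dp/+ mice gave a single call. Dnajb1 in bulb read 9.02, 8.92 and 8.75 against 9.27, 9.55 and 9.64 in +/+, with no overlap (-0.59 ± 0.12, adjusted p = 0.0146, 66.6% of +/+), as 8.82% of all genes did in that direction. It was the only member lower in dp/+ bulb past the threshold (1.06% of all genes were lower), none was higher (1.21%), and after cyclic loess the estimate was -0.57 (adjusted p = 0.0153). The call was lost without +/+ mouse 2 (0.0759) or dp/+ mouse 3 (0.0716). The small heat shock proteins Hspb1 (-0.59 ± 0.18, adjusted p = 0.076) and Hspb6 (-0.54 ± 0.16, adjusted p = 0.0616) were not called in dp/+ bulb; these are named after their values were seen, and both were high in the bulb of +/+ mouse 1. No member was called in dp/+ cortex (0%) or brain stem (0.015%) by limma, with 4 and 2 members at an unadjusted p under 0.05, beside 3143 and 709 of all genes. In cortex the smallest p were those of Dnajb13 (0.31 ± 0.10, adjusted p = 0.165), Dnajc22 (0.36 ± 0.13) and Dnajc10, a reductase of the endoplasmic reticulum (-0.22 ± 0.10). In brain stem they were those of Hspa12b (0.27 ± 0.10), a relative of Hspa12a found in blood vessels, Hsph1 (-0.21 ± 0.10) and Dnajb5 (-0.26 ± 0.14). Dnajb1 had an estimate of -0.23 ± 0.12 in brain stem.

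Calls in cerebellum and none in cortex do not show that the regions differ, so the 4 differences of dp/+ and +/+ were also compared with each other. No member passed that F test (0.211% of all genes did, limma), and 12 members had an unadjusted p under 0.05 (16.7%, beside 14.9% of all genes). Hsph1 had the smallest p, 0.00219 (adjusted 0.143), followed by Dnajb12 and Hspa12b (adjusted p = 0.164 and 0.168).

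Of the 4 members with a 3-unit match in their promoters, Hspd1 fell across the brain (0.381% of all genes fell). In cerebellum Hspd1 and Hsph1 fell (3.26% of all genes). The falls among all genes with such a match were not counted, and a link of the match with a fall was not tested. Hspd1 also has a second promoter, which holds no match. Hspe1 had the values above, and Dnajb6 had an estimate of 0.12 ± 0.08 across the brain (adjusted p = 0.399). That Dnajb6 probe set is dim (6.56 to 7.14 in the group means) and may not stand for the main Dnajb6 signal, since 4 left-out probe sets named Dnajb6 and Gm4247 read far brighter, the brightest at 12.23 in df/+, 12.22 in +/+ and 12.28 in dp/+ samples. Dnajb1, with the largest fall of the family across the brain, has none of these letters in the window printed above, and Hspa1a, with 1 pair of units, was not called. No promoter was found for Hsp90aa1, Hspa8 or Hspa13, among others, so their values cannot be set beside a motif.

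Markers of other cells were set beside these values. Across the brain the list of 5 neuronal markers lay between 0.05 below and 0.03 above the +/+ mean in the +/+ mice and 0.01 below in each dp/+ mouse, and the astrocyte list within 0.04 of it in both. Choroid plexus markers, from tissue that may or may not be cut out with a region, moved much more. Their mean lay 0.23 to 0.46 below the +/+ mean in dp/+ mice, 0.22 to 0.64 below in df/+ mice and between 0.22 below and 0.19 above in +/+ mice, and 1 of 5, Clic6, fell across the brain (-0.44, adjusted p = 0.0253) and in dp/+ cerebellum (-0.91, adjusted p = 0.0345). In cerebellum the choroid plexus mean was 8.82 to 9.85 in dp/+ and 9.82 to 10.20 in +/+ samples, and its defining marker Ttr was bright in every region but bulb, at 13.47 in +/+ cerebellum and 6.92 in +/+ bulb. Cerebellar markers themselves read 11.98 to 12.19 in dp/+ and 11.93 to 12.11 in +/+ cerebella. The endothelial list ran from 8.81 to 9.0 in dp/+ and 8.92 to 9.04 in +/+ cerebella, and the oligodendrocyte list from 11.07 to 11.15 and 11 to 11.10. In bulb, where Dnajb1 fell, the oligodendrocyte mean was 10 to 10.25 in dp/+ and 10.35 to 10.68 in +/+ samples, and 1 of 5 markers fell, Mobp (-0.76, adjusted p = 0.000808). The mean of 5 olfactory sensory neuron markers was 9.19 to 9.38 in dp/+, 9.06 to 9.40 in df/+ and 9.57 to 9.90 in +/+ bulbs, and 1 of 5 fell, Gng13 (-0.76, adjusted p = 0.0237). The neuronal mean overlapped (12.11 to 12.19 and 12.11 to 12.31), and 1 of its 5 markers fell, Stmn2 (-0.31, adjusted p = 0.0416). The part of choroid plexus or other cells in the lower chaperone values was not tested. Of the lists for mural cells, ependyma, olfactory sensory neurons and skeletal muscle, 1 gene was called in dp/+ cerebellum, the ependymal marker Dnah6 (-0.43, adjusted p = 0.0259). None of the 8 immediate early genes, whose RNA responds within minutes to activity and handling, was called across the brain or in cerebellum.

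Genes that work with these chaperones were read from 6 lists. The counts of all 6 lists stand beside 58% of all genes called regional in +/+ mice. In dp/+ cerebellum 3.26% of all genes fell and 2.29% rose. Of the 16 genes around Hsp90, 14 were regional in +/+ mice, led by Fkbp4 (highest in cerebellum, 10.27) and Fkbp5 (highest in cortex, 8.76), both immunophilins that shape steroid receptor complexes, and by Ahsa1, which speeds the Hsp90 ATPase, and Sugt1. In dp/+ cerebellum 5 of the 16 fell, among them Fkbp5 (-0.80 ± 0.14, adjusted p = 0.00708), Ahsa1 (-0.41 ± 0.10, adjusted p = 0.0251) and Fkbp4 (-0.35 ± 0.09, adjusted p = 0.0313), and none rose. The others were Aarsd1 (-0.37) and Unc45a (-0.28), named for having passed. Of 12 cochaperones and exchange factors of Hsp70, 8 were regional, with Bag3 (8.90) and Grpel2 (10.52) highest in cerebellum and Bag1 in brain stem; 1 of 12 fell in dp/+ cerebellum, Bag1 (-0.46 ± 0.11, adjusted p = 0.0249). Bag3, the partner of Hspb8, had -0.19 ± 0.11 there and was not called. Of 14 subunits of TRiC and prefoldin, the folding machines of actin and tubulin, 11 were regional, led by Cct8, Cct2, Pfdn2 and Pfdn1, each highest in brain stem. In dp/+ cerebellum 2 of the 14 fell, Pfdn6 (-0.42, adjusted p = 0.0366) and Cct5 (-0.32, adjusted p = 0.0416), also named for having passed.

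In the endoplasmic reticulum list 4 of 12 genes were regional (Herpud1, Pdia6, Creld2 and Ddit3) and 1 fell in dp/+ cerebellum, Pdia6 (-0.50 ± 0.12, adjusted p = 0.0257). Of 4 measured genes of the heat shock factor list (listed 5), 3 were regional, with Hsf4 highest in brain stem at 9.52 against 8.26 in cerebellum (adjusted p = 1.26e-08), and none was called in dp/+ cerebellum. Of the 2 alpha-crystallins, Cryab, a small heat shock protein by structure that is rich in oligodendrocytes, was highest in brain stem (range 0.76, adjusted p = 8.1e-06), and it was lower in dp/+ bulb (-0.53, adjusted p = 0.00859), where the oligodendrocyte marker mean given above was lower too. No gene of the 6 lists was called across the brain for the slope, for df/+ or for dp/+. The median differences in dp/+ cerebellum were -0.27 for the Hsp90 list, -0.17 for TRiC and prefoldin, -0.16 for the endoplasmic reticulum list, -0.10 for the Hsp70 list, 0.03 for the factors and 0.12 for the crystallins. The median of all genes was -0.02, and in the brightness groups 7 to 10 it ran from -0.16 to -0.06.

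The spread between mice sets what could be seen. Within groups of region and genotype the median SD of the members was 0.13, the same as for all genes, and 0.08 between repeat arrays of 1 sample (0.09 for all genes). Beside Hspb1, 3 more members exceeded the 95th percentile of all genes in spread between mice, Dnajc12 (0.23), Dnajc14 and Hspb6 (0.22 each). Of the 72 members, 18 were no brighter in any +/+ region than the median of all region means, so their values lie near the dim end, where RMA compresses differences. Each p-value sets a difference against a spread that limma shares over the groups of a fit and moderates with all genes. In the regional tests the block takes out differences between whole mice. With 3 mice or fewer in a group, these p-values rest on few animals.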

How the data were processed

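Total RNA of 31 region samples was hybridised to 37 Affymetrix arrays. The authors deposited 1 value per probe set and array; RMA and Affymetrix Expression Console are named per the submitters' processing notes, and the deposited values were read as log2 from their range. Versions and a genome build are not given in the sources used here. The table holds 35556 probe sets, of which 21789 have 1 gene symbol, 1621 several and 12146 none; the last 2 kinds were left out.

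Repeat arrays of 1 sample (6 samples) were averaged. limma 3.58.1 in R 4.3.3 was fitted to all 19938 genes, with Benjamini-Hochberg adjustment over all of them and a threshold of 0.05. Regional tests used the mouse as a fixed block. Tests across the brain used 1 value per mouse, the mean over its regions of the log2 value minus the +/+ mean of that region. Alternatives were other normalizations, brighter genes only, other priors, array weights, every probe set as a feature, a replicate block and each mouse left out. Tests within regions joined the 31 samples, and the mouse entered as a random block (consensus correlation 0.15 for slopes and 0.12 for groups). Each ± after a regional mean is an SD over 3 mice, and each ± after an estimate is a standard error. Simulated data with known changes were used to check the slope across the brain, the regional fit and the test of dp/+ changes between regions. The contrasts of df/+ and dp/+ with +/+, the other normalizations and the promoter search had no such check.

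Members and lists were chosen with earlier results of these data known, and the test of dp/+ changes between regions was added after values were seen. Named are the 4 members per role with the smallest regional p, up to 10 members past the threshold per dosage test, and otherwise the 3 with the smallest p; well known members such as Hspa1a, Hspa8 and Hsp90aa1 were always included, with up to 4 genes of each other chaperone list by regional p. The number of arrays limits the precision, and the labels give no batch.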

Additional observations from a re-analysis of the deposited data

How the results depend on the processing

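Of 1144 values of named members under the alternatives, 1056 kept their direction and side of the threshold, 66 lost and 21 gained a call, and 1 changed sign: the regional difference of Hspa8, not called in either case, was -0.10 under cyclic loess in place of 0.10. Across the brain, the 2 members called in dp/+ mice became 0 with brighter genes only, quantile normalization within regions, cyclic loess, a trended and robust prior or a replicate block, 8 with array weights, and 0 to 3 with 1 mouse left out; all genes called numbered 371 as deposited and 20, 88, 72, 77, 31 and 2222 in that order. The replicate block (Dnajb1 adjusted p = 0.0717, Hspd1 0.108) treats mice of like number as pairs. The deviations of such mice from their genotype means had correlations of -0.38 to 0.17. Mice of unlike number were not compared and the deviations of a genotype sum to 0, so these correlations cannot decide on pairing. In dp/+ cerebellum, 7 members became 22 with array weights and 0 to 10 with 1 mouse left out. In dp/+ bulb, 1 became 2 with quantile normalization, 4 with centred arrays, 3 with array weights and 0 to 3 with 1 mouse left out. Array weights also gave 3 members for the slope across the brain, 1 in df/+ bulb, 4 in dp/+ cortex and 1 for dp/+ changes that differ between regions, as quantile normalization did for the last. Leaving out 1 mouse gave 0 to 1 in df/+ bulb, 21 to 25 in place of 32 for cerebellum against the other regions and 14 to 20 in place of 23 for brain stem. The cause was not tested. With array weights, 1616 genes passed for the slope in place of 22, 2592 in dp/+ cortex in place of 0, 3977 in dp/+ cerebellum in place of 1105 and 457 in dp/+ bulb in place of 452.
Over all genes, cyclic loess called 324 in dp/+ cerebellum and 472 in dp/+ bulb, quantile normalization 325 and 617, and leaving out +/+ mouse 2 or dp/+ mouse 1 gave 6 and 107 or 17 and 518, where the deposited values gave 1105 and 452.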
